A study of Schmidtea mediterranea with 12 samples.

Results

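The transcripts nid2 (dd_Smed_v6_25_0_1, or dd_25, 597 bases) and ct14378 (dd_Smed_v6_31_0_1, or dd_31, 422 bases) were examined in tissue captured by laser from the planarian Schmidtea mediterranea. They are 2 of the 28069 transcripts in the count table, and both are among the 13136 that reached at least 1 CPM (counts scaled to a common, normalized library size) in at least 4 of the 12 libraries. Both were selected by identifier as transcripts of goblet cells in the lateral intestine, after levels in these same libraries were known. Their levels and regional ratios are therefore given below as descriptions, without tests. The study's lateral assignment also drew on in situ hybridization of whole animals. There it reported stronger ct14378 signal in lateral branches and showed nid2 among the laterally enriched patterns.

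Goblet cells are secretory cells scattered among the absorptive phagocytes of the planarian gut, whose branches run from primary stems near the midline to finer branches at the body margin. The best human match of nid2 is NID2, nidogen-2, in mammals a basement membrane glycoprotein that binds laminin and collagen IV. The best human match of ct14378 is CPA6, carboxypeptidase A6, one of the M14 metallocarboxypeptidases, zinc enzymes that remove residues from the C-terminal end of proteins and peptides.

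The libraries came from 4 uninjured adults of the asexual clonal line CIW4, starved for 7 days and 6 to 9 mm long. Sections 20 µm thick were cut through the region in front of the pharynx, and the medial gut, the lateral gut and tissue outside the gut (non-intestine) were collected separately. Each replicate pooled the sections of 1 animal, giving 4 libraries per tissue. A 3′ mRNA kit was used with 5 ng of RNA per library, so reads fall near the poly(A) end. All groups share line, feeding state and fixation, and no treatment or genotype distinguishes them, and the replicates are individuals of 1 clone. Library totals ranged from 20227187 to 33296270 reads, and the log2 levels of libraries from the same tissue correlated across transcripts with r between 0.902 and 0.97. The summed level of 16 other goblet transcripts was 22396 to 33984 CPM in medial and 24070 to 26869 CPM in lateral intestine, against 430.3 to 547.9 CPM in non-intestine. In captured tissue, fewer cells of a type and less RNA per cell cannot be told apart.

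The first question was where along the mediolateral axis each transcript was most abundant. nid2 stood at 14143 to 18132 CPM in lateral intestine, about 8-fold above medial intestine in the mean, and this difference had the same direction and a similar size in 4 of 4 animals. ct14378 was also abundant in intestine, but its lateral and medial libraries overlapped and it was higher laterally in only 2 of 4 animals. Both transcripts were lowest in non-intestine in every animal.

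For animals 1 to 4, nid2 measured 18132, 14259, 15517 and 14143 CPM in lateral intestine, 15513 ± 1854 CPM (SD, n = 4). In medial intestine of the same animals it measured 2039, 1426, 2336.05 and 1912 CPM, 1928 ± 379 CPM (SD, n = 4). In non-intestine it measured 85.3, 143, 215 and 252 CPM, 174 ± 74.2 CPM (SD, n = 4). The tissues did not overlap: the lowest lateral library was 6.05-fold above the highest medial library, and the lowest medial library was 5.67-fold above the highest non-intestine library. Among all tested transcripts, 2.36% had every lateral library above every medial library, a contrast that the choice of nid2 already used. These levels rest on 26840 to 47912 reads in medial, 303491 to 419373 in lateral and 2571 to 7467 in non-intestine libraries. No molecular identifiers are mentioned for the kit, so read numbers speak only to counting error.

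**Figure D1:**
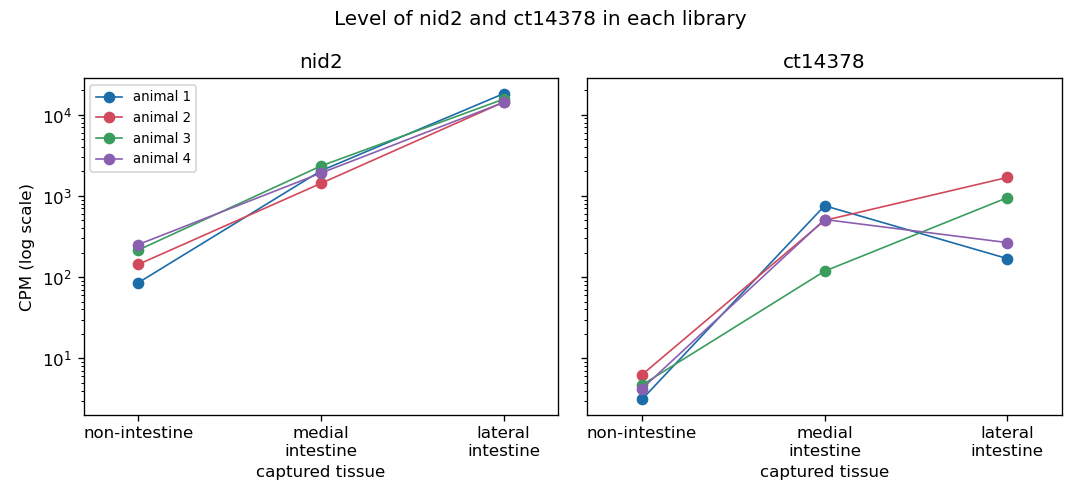
CPM on a log scale in non-intestine, medial intestine and lateral intestine for nid2 (left) and ct14378 (right), with 1 point per library and a line joining the 3 libraries of an animal. The 4 nid2 lines rise at each step, to between 14143 and 18132 CPM in lateral intestine. Their steps from medial to lateral intestine are of similar size, whereas those from non-intestine to medial intestine differ more. The ct14378 lines cross between medial and lateral intestine.

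For animals 1 to 4, ct14378 measured 169, 1685, 949 and 266 CPM in lateral intestine, 767 ± 703 CPM (SD, n = 4). In medial intestine it measured 756, 499, 118 and 512 CPM, 471 ± 264 CPM (SD, n = 4). The ranges of the 2 tissues overlapped, with lateral libraries 2 and 3 above every medial library. The highest library was the lateral one of animal 2 and the lowest intestinal library the medial one of animal 3, and the lateral libraries of animals 1 and 4 lay below 3 of the 4 medial libraries. In non-intestine ct14378 measured 3.12, 6.27, 4.69 and 4.21 CPM, 4.57 ± 1.31 CPM (SD, n = 4), from 94 to 260 reads. The lowest intestinal library was still 18.9-fold above the highest non-intestine library, a wider gap than that of nid2 in medial intestine.

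The second question was how steady the lateral bias was across the paired libraries. Within animals 1 to 4, nid2 was 8.89-, 10.0-, 6.64- and 7.40-fold higher in lateral than in medial intestine. On the log2 scale the ratios were 3.15, 3.32, 2.73 and 2.89, a mean of 3.02 ± 0.26 (SD, n = 4), and the fitted log2 fold change over all libraries was 3.01. A lateral library above its own medial library in 4 of 4 animals was found for 7.37% of all tested transcripts.

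Within animals 2 and 3, ct14378 was 3.37- and 8.03-fold higher in lateral than in medial intestine. Within animals 1 and 4 it was 4.48- and 1.92-fold higher in medial intestine instead. The log2 ratios of animals 1 to 4 were -2.16, 1.75, 3.01 and -0.94, a mean of 0.41 ± 2.38 (SD, n = 4). The spread between animals thus exceeded the mean ratio several times over. The fitted log2 fold change was 0.70. It was -0.035 without the lateral library of animal 2, -0.0089 without animal 2 and 1.36 without animal 1. Without animal 2 the pooled value was thus only slightly negative, while the largest paired ratio was that of animal 3. The mean of the paired ratios was not recomputed with animals left out. With the animal added to the model as a replicate block the fitted value was 0.38.

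**Figure D2:**
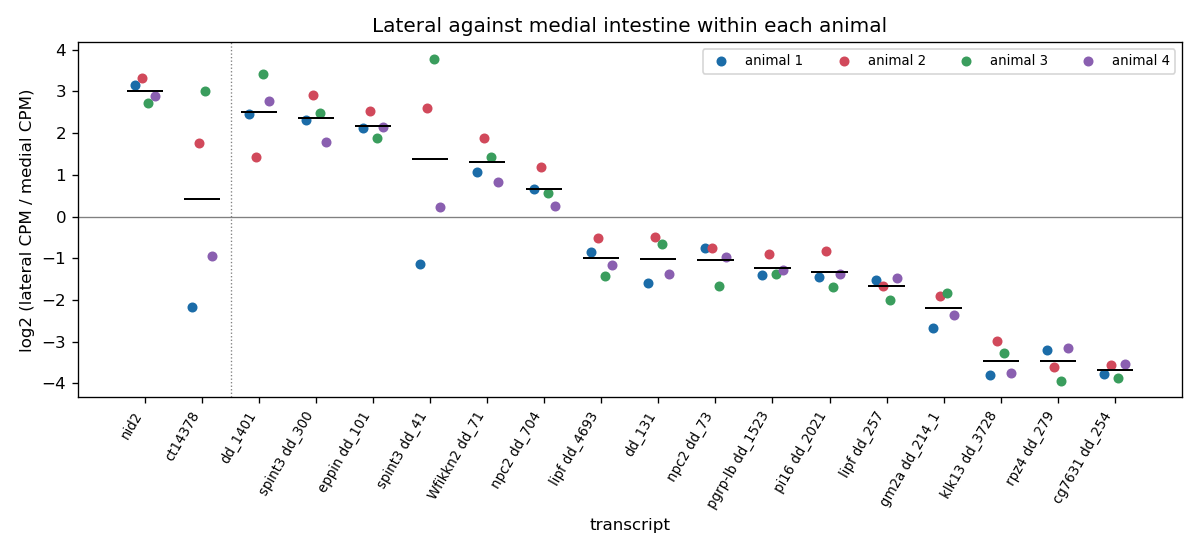
The log2 ratio of lateral to medial CPM in each of the 4 animals (coloured points) and its mean (black bars) for nid2 and ct14378, left of the dotted line, and for 16 other goblet or laterally enriched transcripts. The points of nid2 lie between 2.73 and 3.32, those of ct14378 between -2.16 and 3.01, and most other transcripts keep 1 side of 0 in all animals.

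The spread of the paired ratios was set against that of the 5665 transcripts with a mean of at least 10 CPM and reads in every intestinal library. The median SD of the paired log2 ratio over all of them was 0.458. For nid2 it was 0.264, with 19.4% of the transcripts below it, although only 10 transcripts had a larger mean ratio. For ct14378 it was 2.38, with 99% of the transcripts below it and 57 above. The other goblet transcripts were listed from their in situ pattern and are a part of those the study assigned to these cells. Their SD ranged from 0.16 to 0.827 with a median of 0.395. The ratio of ct14378 varied more between animals than that of any transcript on that list for which it could be computed. Outside that list, dd_41, one of the lateral goblet-enriched transcripts that the study screened, had an SD of 2.23, close to that of ct14378.

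**Figure D3:**
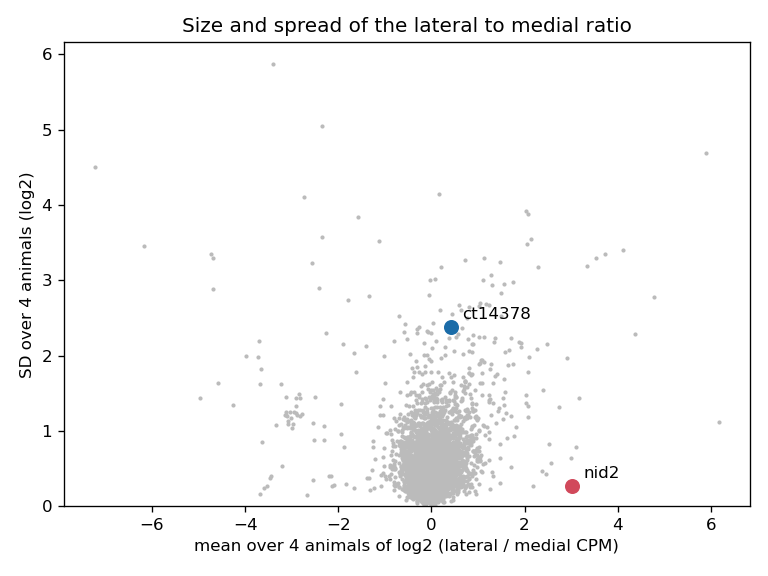
Mean (x axis) and SD (y axis) over 4 animals of the log2 ratio of lateral to medial CPM for 5665 transcripts (grey), with nid2 in red and ct14378 in blue. nid2 lies at a mean of 3.02 with an SD of 0.264, far to the right and near the lower edge, and ct14378 at a mean of 0.413 with an SD of 2.38, above most of the cloud.

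Against non-intestine, the order of the members changed. The fitted log2 fold change of nid2 was 3.47 in medial and 6.48 in lateral intestine. That of ct14378 was 6.68 in medial and 7.39 in lateral intestine, although its level within the intestine was lower. The 4 non-intestine libraries are common to these ratios. Within animals, nid2 was 7.60- to 23.9-fold higher in medial intestine than in non-intestine and 56.2- to 212-fold higher in lateral intestine. ct14378 was 25.2- to 242-fold higher in medial and 54.2- to 269-fold higher in lateral intestine. All 4 medial libraries lay above all 4 non-intestine libraries for 18.4% of the tested transcripts, and all 4 lateral libraries for 18.7%. Both members had that pattern, which the study's selection of intestinal transcripts had used.

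Levels of the members were also set beside each other in the TPM deposited by the authors, which is scaled by length. nid2 stood at 19959 ± 2462 TPM (SD, n = 4) in lateral intestine, where it ranked between 4 and 7 of the 13136 transcripts. In medial intestine it stood at 2325 ± 365 TPM (SD, n = 4) and ranked between 39 and 60. ct14378 stood at 1437 ± 1393 TPM (SD, n = 4) in lateral and 827 ± 480 TPM (SD, n = 4) in medial intestine, with ranks between 43 and 405 over the intestinal libraries. nid2 exceeded ct14378 in every library, by 1.91- to 13.97-fold in medial and 5.98- to 75.8-fold in lateral intestine. The largest excess was in the lateral library of animal 1 and the smallest in the medial library of the same animal. Since the 3′ kit yields reads from 1 end of a transcript, scaling by length can favour short transcripts such as these. It favours ct14378, the shorter member, over nid2, so the excess of nid2 is larger in CPM. In medial library 1, where TPM gave 1.91-fold, the levels were 2039 CPM for nid2 and 756 CPM for ct14378.

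The regional pattern of the members was then set beside 16 other goblet transcripts, listed from their in situ hybridization pattern with the members left out. These are a part of the goblet transcripts that the study reported from hybridization. The study picked transcripts for hybridization from these same libraries, including some with strong regional ratios. The shares below are therefore descriptions and not independent evidence of a regional bias. Of 16, 3 were higher in lateral and 7 higher in medial intestine by edgeR's quasi-likelihood test (Benjamini-Hochberg FDR under 0.01 and fold change over 1.5), against 0.16% and 0.129% of all 13136 transcripts. Their median log2 fold change was -1.14, against 0.03 over all transcripts. The medial group included cg7631, a metalloendopeptidase, and rpz4, which differed by -3.70 ± 0.37 and -3.50 ± 0.36 (log2 lateral over medial ± SE; edgeR, Benjamini-Hochberg FDR = 0.00028 and 0.000315). The laterally higher transcripts were eppin, spint3 (dd_300) and dd_1401, the last without an annotated match. The transcript eppin matches a protease inhibitor of the epididymis. The name spint3 comes from a match to a Kunitz-type serine protease inhibitor, and the best human match of dd_300 is the collagen chain COL6A3. The counts were lower with fewer libraries. Without animals 1, 2, 3 and 4 in turn, 0, 1, 1 and 2 of the goblet transcripts were higher laterally and 4, 3, 3 and 5 medially. Without medial library 1 or 4 there was 1 laterally, and without lateral libraries 1, 2 and 4 there were 3, 4 and 4 medially. With DESeq2, 11 were higher medially. With the animal added as a replicate block, 3 were higher laterally and 5 medially, pgrp-lb and klk13 no longer passing (edgeR, Benjamini-Hochberg FDR = 0.0115 and 0.0107), of which pgrp-lb is named here after its values were seen.

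A list of 6 other laterally enriched transcripts that the study had screened by RNA interference was chosen by its authors on these samples and shares 4 transcripts with the goblet list, so its direction is not independent evidence. By the same test, 4 of the 6 were higher in lateral intestine, namely eppin, spint3, dd_1401 and Wfikkn2, and 0 in medial intestine. The median of the 6 fitted log2 values was 1.86. Without animals 1, 2, 3 and 4 in turn, 0, 1, 1 and 2 of them were higher laterally. Leaving out medial library 1 or 4 gave 1, and leaving out medial library 3, non-intestine library 4 or any lateral library gave 2, as did library totals in place of TMM factors. The ratio of nid2 was larger in the mean than that of each of these transcripts with reads in every intestinal library. Of the 2 that did not pass, dd_2506 had few reads, and a second spint3-like transcript, dd_41, had paired log2 ratios of -1.14, 2.60, 3.79 and 0.23 in animals 1 to 4 (SD 2.23). Its SD was close to that of ct14378, and its highest ratio fell in animal 3 and its lowest in animal 1, as with ct14378. Over the 8 intestinal libraries its log2 level followed that of ct14378 with r = 0.904.

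Transcripts whose matches are related by function to the matches of the members were also compared. The members have only 597 and 422 bases, and how much of NID2 or CPA6 they cover was not examined. Of 13 transcripts matching basement membrane or matrix proteins, their proteases or receptors, 0 passed in either direction between lateral and medial intestine. By the same edgeR quasi-likelihood test, 0.16% of all 13136 transcripts passed laterally and 0.129% medially, so a count of 0 is near that share. By DESeq2 and by the likelihood ratio test, 1 of the 13 was higher in lateral intestine. At an unadjusted p under 0.05 in edgeR's quasi-likelihood test, 738 of the 13136 transcripts were higher laterally and 379 medially. The list was not counted at that threshold. The median log2 fold change of the list was 0.11. The laminin chain matches LAMA1, LAMB1 and LAMC1 and the collagen IV match COL4A5, the partners of nidogen in mammals, had values of -0.19, -0.27, 0.08 and 0.21. The other NID2 match, dd_13292 (2444 bases), measured 12.8, 6.53, 11.7 and 24.3 CPM in lateral and 2.26, 4.52, 1.27 and 0.931 CPM in medial intestine of animals 1 to 4. Its lateral libraries all lay above its medial libraries, like those of nid2 but at much lower levels, and the fitted difference of 2.62 ± 0.56 (log2 ± SE) did not pass (edgeR, Benjamini-Hochberg FDR = 0.0756). Reads of both NID2 matches summed gave a mean paired log2 ratio of 3.02.

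nid2 is also annotated with the term cell-substrate adhesion. Of the 23 other intestinal transcripts with that term, again chosen by the authors on these samples, 0 passed in either direction by edgeR's quasi-likelihood test. This is again near the shares over all transcripts, 0.16% laterally and 0.129% medially. By DESeq2 and by the likelihood ratio test, 1 of the 23 was higher laterally, and the median log2 fold change was -0.07. That transcript was dd_13292, the same one as in the matrix list above, so it is not a further result. LAMB1 and LAMC1 are also on both lists.

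Values of other carboxypeptidase matches were set beside ct14378. The transcript dd_2282, which matches human CPA4 and the same fly gene as ct14378, measured 66.4, 70.7, 39.7 and 50.4 CPM in lateral and 34.8, 52.5, 36.6 and 53.2 CPM in medial intestine, with overlap, a fitted difference of 0.36 ± 0.22 (log2 ± SE; edgeR, Benjamini-Hochberg FDR = 0.78). PRCP, a lysosomal serine carboxypeptidase, had paired log2 ratios of -1.27, 0.68, 1.03 and -0.48. The directions in the 4 animals were those of ct14378.

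Transcripts whose level followed each member most closely were ranked by Pearson's r of log2(CPM + 1) among 5850 others with a mean of at least 10 CPM. The r values describe these libraries, which share animals and tissue groups. Over all 12 libraries the nearest to nid2 were dd_370 (r = 0.992), which matches TFPI2, a Kunitz-type protease inhibitor, then eppin (0.989), spint3 (0.977), dd_463 (0.977) and dd_6318 (0.971). Over the 8 intestinal libraries they were eppin (0.993), dd_451 (0.986), dd_370 (0.985), spint3 (0.965) and dd_463 (0.964). For dd_370 the levels were 1211 to 1653 CPM in lateral, 197 to 312 CPM in medial and 6.44 to 21.9 CPM in non-intestine libraries. This is the same order as nid2, which the choice of dd_370 by r implies. dd_451 differed in being most abundant in non-intestine, at 246 to 853 CPM, and reached at most 37.1 CPM in intestine.

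The transcripts nearest to ct14378 were others. Over 12 libraries they were dd_608 (r = 0.996), dd_1621 (0.995), which matches the aldehyde dehydrogenase ALDH8A1, dd_4666 (0.995), dd_1553 (0.994) and dd_479 (0.992). Over the 8 intestinal libraries they were dd_603 (0.988), which matches calmodulin, a calcium sensor, dd_825 (0.983), which matches the mitochondrial import subunit TIMM23, dd_1406 (0.982), dd_736 (0.98) and dd_2456 (0.979). None of these 10 is on the goblet list. dd_1621 measured 178, 102, 43.5 and 125 CPM in medial and 44.1, 221, 184 and 53.2 CPM in lateral intestine of animals 1 to 4. Like ct14378 it was low in medial library 3 and in lateral libraries 1 and 4, a likeness that its choice by r implies. Over the intestinal libraries, r was above 0.9 for 77 transcripts (1.32%) with ct14378 and for 18 (0.308%) with nid2, and it was 0.102 between the members. Over all 12 libraries, which include the non-intestine libraries where both members were lowest, r between the members was 0.852. There it was above 0.9 for 782 transcripts (13.4%) with ct14378 and for 56 (0.957%) with nid2.

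**Figure D4:**
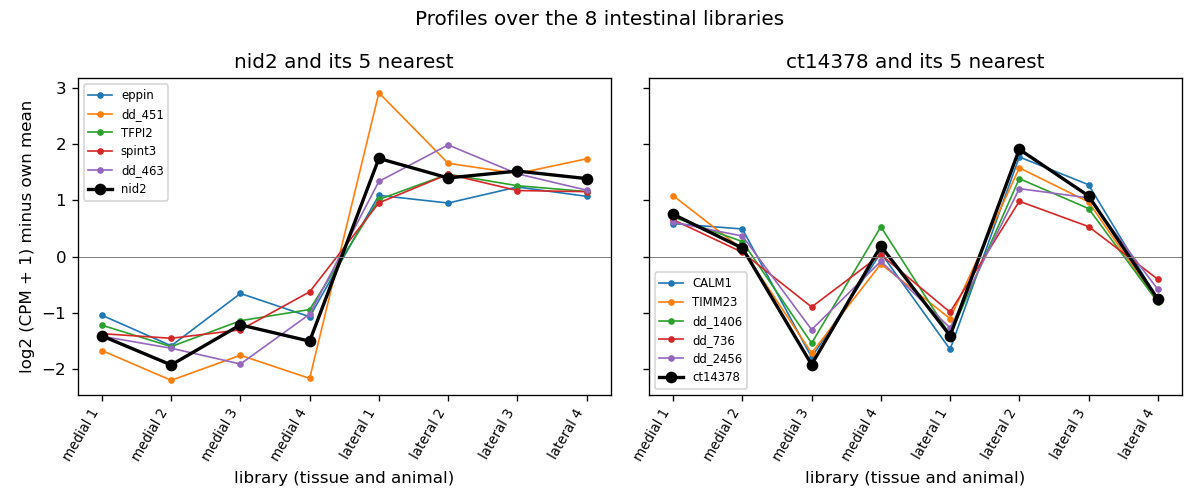
log2(CPM + 1) minus its own mean over the 8 intestinal libraries for nid2 (left, black) and ct14378 (right, black), each with the 5 transcripts of highest r (colours). The nid2 set is low in the 4 medial and high in the 4 lateral libraries, while the ct14378 set is low in medial library 3 and lateral libraries 1 and 4 and high in lateral libraries 2 and 3.

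The directions of ct14378, lower laterally in animals 1 and 4 and higher in animals 2 and 3, were shared by 608 of the 5665 transcripts, or 10.7%. The opposite directions in every animal were found for 686, or 12.1%, the most frequent pattern. A split of animals 1 and 4 from animals 2 and 3 was thus common among transcripts. Over the intestinal libraries, the r of the 16 goblet transcripts with ct14378 ranged from -0.504 to 0.295. Markers of other intestinal cells were examined beside it. The summed level of 6 phagocyte transcripts was 18224 to 25565 CPM in medial and 18646 to 24156 CPM in lateral intestine, with log2 ratios between -0.175 and 0.18 in the 4 animals. The summed level of 12 basal cell transcripts had log2 ratios between 0.11 and 0.34. Over the intestinal libraries, the r of the phagocyte transcripts with ct14378 had a median of -0.26. It was 0.896 for the protease ctsla and between -0.447 and -0.0877 for the other 5. The r of the basal transcripts had a median of 0.211 and ranged from -0.578 for zgc:172053 to 0.923 for cyp2u1, with dd_115 at 0.907. The part of these cells in the variation of ct14378 was not tested. Markers of secretory cells around the pharynx, muc-like-1, muc-like-2 and muc-like-3, summed to at most 28.5 CPM in any intestinal library, and that maximum was in medial library 4, where ct14378 measured 512 CPM.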

How the data were processed

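Tissue from 12 laser-captured samples was sequenced. The authors trimmed reads with BBDuk and aligned them to 28069 dd_Smed_v6 transcripts with Bowtie2 2.3.1, and counted them with SAMtools 1.3 (versions from the submitters' processing notes, which also list edgeR 3.8.6). The deposited read counts per transcript are not normalized. The CPM values deposited by the authors are a signal scaled to TMM-adjusted library sizes, and the deposited RPKM and TPM values are also scaled by the deposited transcript length. Only the counts, TPM and lengths were used. The authors' columns of log fold changes, log CPM, likelihood ratios, p-values and FDR hold the study's own comparisons and were not used.

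Counts were analysed with edgeR 4.0.16 in R 4.3.3 (limma 3.58.1 and DESeq2 1.42.0 for alternatives) and summarised in Python 3.11.15. The filter kept 46.8% of transcripts, those reaching 1 CPM in 4 or more libraries, TMM factors were computed, and all 12 libraries were fitted with a term per tissue and a quasi-likelihood test, with a prior count of 0.125. The study named the likelihood ratio test, which is an alternative here. Between intestinal regions, calls needed an FDR under 0.01 and a fold change over 1.5. The members' ratios were not tested.

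Members and gene lists were chosen with earlier results of these data known. Named transcripts are the members, every member of a list of up to 13, the 4 with the largest regional fold change in longer lists, and the 5 nearest by r over 12 and over 8 libraries. A listed transcript is not reported here by name. Gene names are best matches in the study's annotation. Libraries with the same number were taken as 1 animal, since the study describes 4 individuals with each tissue captured from them. The deviations of medial and lateral libraries of an animal from their tissue means correlated with r between 0.0481 and 0.111 across transcripts, those of lateral intestine and non-intestine with r between 0.0679 and 0.159, and those of medial intestine and non-intestine with r between -0.0096 and 0.0971. Transcript sequences were not used here, and reads shared by similar transcripts cannot be assigned with certainty.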

Additional observations from a re-analysis of the deposited data

Results flagged for a closer look

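Of 32 groups of 4 values examined, 2 had a library far from the others, and chance alone marks about 1 group in 20. The summed level of the 6 laterally enriched transcripts in medial intestine was 6431 CPM in animal 2, below the other medial libraries. The summed level of the 3 mucin-like transcripts of cells around the pharynx in medial intestine was 28.5 CPM in animal 4, above the other medial libraries. None of the values of nid2 or ct14378 in a tissue, nor their paired ratios, stood apart in this way.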

How the results depend on the processing

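The lateral to medial log2 ratio of nid2 stayed between 2.89 and 3.11 with animals or libraries left out and was 3.04 with the replicate block. That of ct14378 ranged from -0.035 to 1.36, and reversed without animal 2 (-0.0089) and without lateral library 2 (-0.035). Without a single library of one tissue it stayed between -0.035 and 1.04. Against non-intestine, leaving out animals or libraries gave 3.08 to 3.68 (medial) and 6.10 to 6.73 (lateral) for nid2, and 6.19 to 7.01 and 6.49 to 7.72 for ct14378. Of all transcripts, 21 were called higher in lateral and 17 higher in medial intestine. Without animals 1, 2, 3 and 4 in turn there were 5, 6, 12 and 8 laterally and 9, 6, 10 and 8 medially, and without single libraries 11 to 20 and 9 to 17. The likelihood ratio test called 128 and 47, DESeq2 120 and 53, and fitting only both intestinal tissues 11 laterally. With the replicate block 13 were called laterally. Higher in medial or lateral intestine than in non-intestine were 1676 and 1543, 1315 to 1752 and 1221 to 1614 with libraries left out, and 954 and 930 with library totals in place of TMM. The cause of these shifts was not tested. Summing transcripts with a shared match, chosen after seeing the data, gave 3.02 for nid2 and 0.44 for ct14378. Each intestinal library held at least 1869 reads of ct14378 and at least 26840 of nid2, which speaks only to counting error. With 4 animals and an SD of 2.38, the mean log2 ratio of ct14378 remains poorly determined.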
